A study of Mus musculus with 13 samples.

Results

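The 10 genes described here set the output of hepcidin, the iron-regulating hormone of the liver, or carry out its effect: Hamp and Hamp2 (the mouse hepcidin genes), Bmp6 (the ligand), Id1 and Smad7 (transcripts that BMP signals induce), Tfr2, Hfe and Tmprss6 (iron sensing at the hepatocyte surface), Slc40a1 (the iron exporter ferroportin) and Tfrc (the transferrin receptor that imports iron). They were found in the deposited count table by symbol and are 10 of the 54532 genes listed there. All 10 passed the filter on low counts that left 14280 genes for testing.

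The libraries came from livers of wild-type C57 BL6 mice aged 8 weeks, and the labels give collection at 6 h for every group. Saline was given to 1 group (3 libraries), and intraperitoneal D-galactosamine (D-GalN) at 500 mg/kg with lipopolysaccharide (LPS) at 5 µg/kg to another (GalN/LPS, 3 libraries), a model of acute liver failure. The pretreated group (4 libraries) received 300 µg/kg of dmPGE2, a stable analogue of prostaglandin E2, by the intraperitoneal route 1 h before the same GalN/LPS injection. The dmPGE2 group (3 libraries) received 300 µg/kg of dmPGE2 without GalN/LPS, and its interval between dmPGE2 and collection is not recorded. Each library was made from 1 µg of total RNA, and the labels do not say that each came from its own animal, so the p-values measure the spread between these samples, which may be technical. Total counts ranged from 14829838 to 20777809 per library.

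Hepcidin is secreted by hepatocytes and causes ferroportin to be degraded, which holds iron inside cells and lowers iron in plasma. Its gene is switched on by BMP6 and BMP2, made mainly by liver sinusoidal endothelial cells, which act through BMP receptors and the co-receptor hemojuvelin on SMAD proteins. HFE and transferrin receptor 2 add information on transferrin iron, and the protease matriptase-2 (Tmprss6) dampens the signal by cleaving hemojuvelin. A second input is inflammatory: interleukin 6 acts through STAT3 and raises hepcidin when microbes or LPS are sensed.

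Both inputs act on the hepcidin promoter, which is shown here for both genes because their sequences are near-identical and differ within the BMP element. The stretches run from 160 to 11 bases before the RefSeq start, on the minus strand of GRCm38.p6, at chr7:30944040-30944189 for Hamp and chr7:30924192-30924341 for Hamp2. In the deposited count table Hamp2 extends to 30924681, so its stretch lies within the gene as listed there. Hamp is listed as far as 30944032, so its stretch lies outside. Capitals mark the letters GGCGCC of the BMP-responsive element and the letters TTCTTGGAA of the STAT site.
Hamp: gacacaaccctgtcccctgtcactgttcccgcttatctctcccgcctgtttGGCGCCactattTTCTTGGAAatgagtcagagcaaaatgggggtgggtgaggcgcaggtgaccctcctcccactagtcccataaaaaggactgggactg
Hamp2: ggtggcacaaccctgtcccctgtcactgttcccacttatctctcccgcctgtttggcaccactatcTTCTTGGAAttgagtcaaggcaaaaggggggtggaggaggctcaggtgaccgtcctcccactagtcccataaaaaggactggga

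Over the 250 bases before the start, 227 of 247 aligned positions (91.9%) were identical between both genes. At the place of the BMP element Hamp2 reads GGCACC, the substitution G4A counted from the first base of the element with the base of Hamp first, while the STAT letters stand in both genes. The element begins 109 bases before the start of Hamp, and the STAT letters begin 97 bases before the start of Hamp and 94 before that of Hamp2. The 32851 RefSeq promoter entries run from 250 bases before the start to 50 after it. Searched on both strands of these, GGCGCC was found in 11.9% and TTCTTGGAA in 0.417%. RefSeq promoter entries were matched for 6 of the 10 genes (9 entries). Among these GGCGCC also stood in 1 of the entries of Tfrc, and TTCTTGGAA in none beyond the hepcidin pair. A match is a description of the letters and says nothing of a factor's binding.

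The part of the coding sequence that encodes the secreted peptide sets the pair apart. These 75 bases (25 codons) come from GENCODE transcripts on GRCm38, read on the minus strand, and capitals mark the 14 positions at which they differ.
Hamp: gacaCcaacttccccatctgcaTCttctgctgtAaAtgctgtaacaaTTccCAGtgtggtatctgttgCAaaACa
Hamp2: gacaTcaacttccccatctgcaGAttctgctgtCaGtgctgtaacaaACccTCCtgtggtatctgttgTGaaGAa
The rest of the coding sequence differed at 2 positions, and the transcripts were 94.6% identical over 410 aligned bases. Of the 361 windows of 50 bases in the Hamp transcript, 60 (16.6%) stood unchanged in Hamp2, and the longest run shared by both transcripts was 87 bases. The share is for windows of this length and is not a share of reads. The sources used here do not say how reads matching both genes were counted, so the levels of Hamp2, the rarer of the pair, are uncertain.

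Levels below are CPM (counts relative to the library's total, scaled by TMM factors), given as mean ± SD, and log2 fold changes are given ± standard error with adjusted p-values from edgeR's quasi-likelihood test over all genes tested, called at 0.05. Gene coordinates are those of the deposited table, on GRCm38. Against saline, GalN/LPS raised 2 of the 10 genes (Bmp6 and Id1) and lowered 2 (Hamp and Slc40a1), while 52.9% of all genes tested were called. Without GalN/LPS library 1, 7 were called, with Smad7, Hfe and Tmprss6 in addition. Over the fits with 1 library left out, 6852 to 7735 of all genes were called in this comparison. Against GalN/LPS, pretreated livers held more Tfr2, Hfe and Tmprss6 and less Bmp6, Smad7 and Slc40a1, which is 6 of 10 beside 54.5% of all genes. Pretreated livers differed from saline livers in 5 genes that rose (Bmp6, Id1, Tfr2, Hfe and Tmprss6) and 1 that fell (Slc40a1), beside 65% of all genes (34.8% higher and 30.2% lower). These shares lie near the background, so the account that follows rests on the single genes. Pretreated against GalN/LPS uses the same GalN/LPS libraries as GalN/LPS against saline, so opposite changes in both are not separate pieces of evidence.

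dmPGE2 without injury gave no called gene among the 10, and 0% of all genes tested were called by edgeR. At an unadjusted edgeR p under 0.05 it had 1990 genes (13.9% of all genes tested) and 4 of the 10 (Hamp, Hamp2, Id1 and Smad7, all lower). DESeq2 called 280 genes, 1 of them Hamp, and limma on log2 FPKM called 16 with a pseudocount of 1, 0 with a pseudocount of 0.1 and 10 without a filter.

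TMM factors were lowest in the pretreated group (0.683 to 0.830, against 1.17 to 1.18 in saline), so the choice of scaling bears on every comparison with it. With library totals in place of TMM, the median log2 fold change of all genes moved from 0.02 to -0.15 for GalN/LPS against saline, from -0.10 to -0.61 for pretreated against GalN/LPS, from 0.14 to -0.54 for pretreated against saline and from -0.11 to -0.69 for the interaction. Calls over all genes then went from 3481 higher and 4299 lower to 616 and 6804 in pretreated against GalN/LPS, from 4969 and 4313 to 1683 and 6803 in pretreated against saline, and from 2202 and 2797 to 182 and 5209 for the interaction. Among the 10 genes, the same change of scaling left 1 higher and 3 lower, 2 higher and 4 lower, and 1 higher and 3 lower in these comparisons. Genes whose calls were lost are named beside their results.

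**Figure D1:**
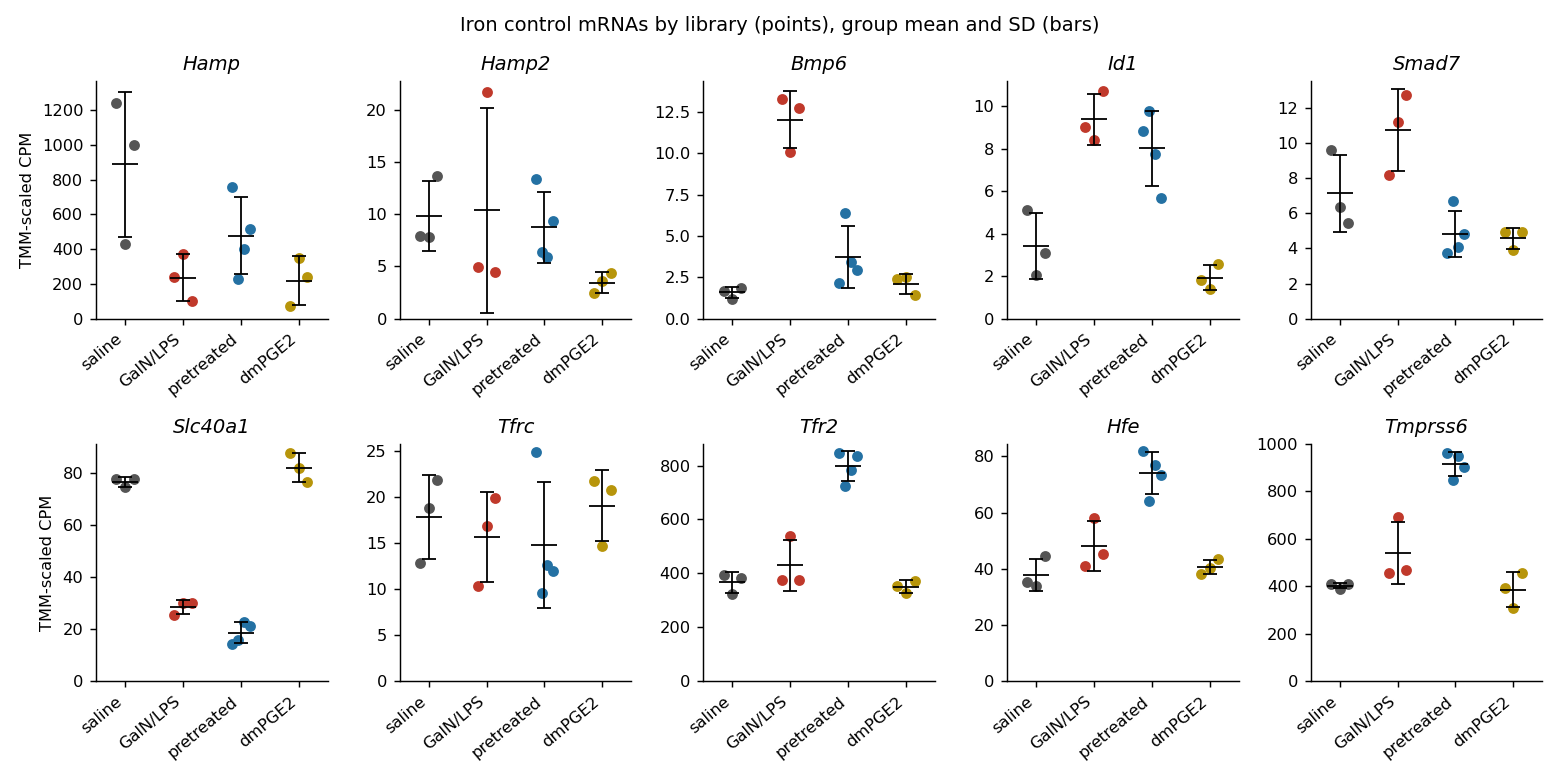
TMM-scaled CPM of the 10 genes (vertical axes, each from 0) in every library (points) of the 4 groups (horizontal axis), with the group mean as a long bar and the SD as error bars. Slc40a1 was lower in both injured groups than in saline and dmPGE2 livers with no overlap, Bmp6 was highest in the 3 GalN/LPS libraries, and Tfr2, Hfe and Tmprss6 were highest in the 4 pretreated libraries.

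Hamp, the hepcidin gene itself (chromosome 7, 30942368 to 30944032, ENSMUSG00000050440), stood at 1238, 428 and 998 CPM in the 3 saline libraries. The GalN/LPS libraries held 237, 369 and 99.6 CPM, all below the lowest saline library. Hamp mRNA fell by 1.92 ± 0.56 on the log2 scale, to 0.265 of the saline level (edgeR adjusted p = 0.00927). LPS is known to raise hepcidin through interleukin 6. In these livers the hepcidin mRNA was lower while Il6 mRNA was present at 1.95 to 3.56 CPM against no counts in saline. LPS was given only together with D-GalN, so the effect of LPS by itself cannot be read from these groups.

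Pretreated livers held 756, 231, 403 and 518 CPM of Hamp, which lay between the other injured group and saline and overlapped both. The difference from GalN/LPS was 1.02 ± 0.52 (edgeR adjusted p = 0.109, 95% interval -0.09 to 2.13), and that from saline was -0.90 ± 0.51 (adjusted p = 0.130). Neither passed the threshold. The difference from GalN/LPS passed in 2 of 23 alternatives, without GalN/LPS library 2 (1.51, adjusted p = 0.0465) and without the filter on low counts (1.00, adjusted p = 2.31e-07). That from saline passed in 3 of 23, with library totals (-1.61, adjusted p = 0.00797), with only the groups compared in the fit (-1.05, adjusted p = 0.0329) and without the filter (-1.06, adjusted p = 3.56e-09). The fit without the filter had infinite prior degrees of freedom, so it did not use the spread of each single gene. Its p-values therefore do not measure the spread of Hamp.

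In the dmPGE2 libraries Hamp was at 70.9, 349 and 237 CPM, again below every saline library. The log2 difference of -2.02 ± 0.57 was as large as that after GalN/LPS, yet it missed the threshold in edgeR (adjusted p = 0.143, unadjusted p = 0.00257). It passed in DESeq2 (adjusted p = 0.0476) and without the filter (adjusted p = 9.37e-23), where the spread of Hamp itself was not used. The fitted effect of dmPGE2 on Hamp had opposite signs in injured and uninjured livers (1.02 and -2.02, neither called), and the interaction, the effect in injured less that in uninjured livers, was 3.04 ± 0.77 on the log2 scale (edgeR adjusted p = 0.00862). For this term 35% of all genes were called, 15.4% higher and 19.6% lower, and 3 of the 10 were higher and 2 lower. The Hamp value passed the threshold in each alternative run, with adjusted p-values up to 0.0407 and values from 2.51 to 3.56. The interval between dmPGE2 and collection is not recorded for the dmPGE2 group, so timing cannot be told apart from injury here.

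Spread within groups was a feature of both hepcidin genes. The coefficient of variation of Hamp, averaged over the 4 groups, was 53.6%, above 99.3% of the 8882 genes with a mean of at least 5 CPM, whose median was 13.1%. For Hamp2 it was 48.8%. Libraries of the same group differed in Hamp by up to 4.92-fold (dmPGE2) and by no less than 2.89-fold (saline).

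Hamp2 (chromosome 7, 30922372 to 30924681, ENSMUSG00000056978) lies beside Hamp on the same strand and was far rarer. Saline libraries held 7.93, 7.82 and 13.6 CPM of it and GalN/LPS libraries 4.94, 21.7 and 4.51 CPM. A single library, GalN/LPS 2, was thus above all others, and it was also the highest of its group for Hamp. Hamp2 did not pass the test in any comparison: its log2 difference was 0.07 ± 0.48 for GalN/LPS against saline (edgeR adjusted p = 0.916), with a sign that turned under library totals (-0.19), and -1.06 with an adjusted p of 0.0231 when GalN/LPS library 2 was left out. Pretreated libraries had 13.3, 6.42, 5.92 and 9.30 CPM, -0.23 ± 0.46 from GalN/LPS (adjusted p = 0.680). Without GalN/LPS library 2 this difference was 0.90 with an adjusted p of 0.0409. The dmPGE2 libraries held 2.44, 3.60 and 4.35 CPM, below every saline library, with a log2 difference of -1.51 ± 0.50 (adjusted p = 0.198).

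As a share of all counts on the pair, Hamp2 made up 0.637%, 1.79% and 1.35% in saline libraries and 2.04%, 5.55% and 4.33% in GalN/LPS libraries. The GalN/LPS shares were all above the saline shares, at 3.97% ± 1.78 (SD, n = 3) against 1.26% ± 0.584 (SD, n = 3), and the two-sided exact permutation p was 0.1, the smallest that 3 against 3 libraries can give. Pretreated shares ran from 1.45% to 2.71% (1.91% ± 0.549, SD, n = 4; exact permutation p = 0.0571 against GalN/LPS, smallest possible 0.0286) and dmPGE2 shares from 1.02% to 3.32% (2.05% ± 1.17, SD, n = 3). After adjustment over the 4 group comparisons none passed 0.05 (adjusted p from 0.2 to 0.4). Hamp was thus called after GalN/LPS and Hamp2 was not, but the shift in their ratio did not pass a test. The exact binomial intervals drawn in the plot of shares cover counting error only.

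**Figure D2:**
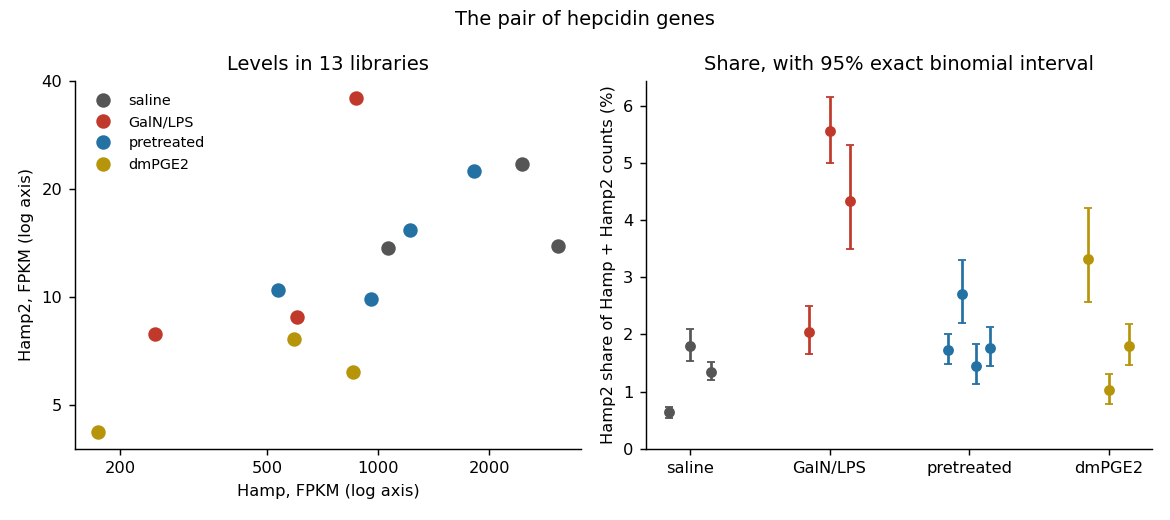
Left, FPKM of Hamp2 against FPKM of Hamp (both axes logarithmic) in the 13 libraries, coloured by group; right, the share of Hamp2 in the counts of the pair (percent, axis from 0) per library with its 95% exact binomial interval. GalN/LPS library 2 has the highest Hamp2 level and, at 5.55%, the highest share, while its Hamp level lies below all saline libraries.

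Bmp6, the ligand that reports liver iron to hepatocytes (chromosome 13, 38345107 to 38500302, ENSMUSG00000039004), was scarce in saline livers at 1.70, 1.20 and 1.87 CPM. After GalN/LPS it stood at 13.3, 10.1 and 12.8 CPM, a rise of 2.92 ± 0.34 on the log2 scale or 7.54-fold (edgeR adjusted p = 3.09e-06). Bmp6, which encodes a ligand that switches on the hepcidin gene, thus rose in the libraries in which Hamp fell. Pretreated livers held 2.14, 6.42, 3.42 and 2.96 CPM, above all saline and below all GalN/LPS libraries. The log2 difference was -1.67 ± 0.30 from GalN/LPS (adjusted p = 0.000352) and 1.24 ± 0.34 from saline (adjusted p = 0.00421). The call against saline was lost with library totals (0.60, adjusted p = 0.197) and with limma on FPKM without a filter (0.42, adjusted p = 0.0745). The dmPGE2 libraries, at 2.40, 2.50 and 1.43 CPM, overlapped saline (0.40 ± 0.36, adjusted p = 0.645), and the interaction was -2.07 ± 0.46 (adjusted p = 0.00473).

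Markers of the cells that make BMP6 moved with it. All 9 sinusoidal endothelial markers (Stab2, Stab1, Lyve1, Clec4g, Dnase1l3, Oit3, Fcgr2b, Kdr and Pecam1) rose after GalN/LPS and all 9 were lower in pretreated livers than after GalN/LPS alone, and none was at 0 in any group. Their summed level was 559 to 688 CPM in GalN/LPS, 165 to 337 in pretreated, 89.0 to 118 in dmPGE2 and 81.0 to 95.6 in saline libraries. Measured against the mean log2 level of these markers, an alternative added after the data were seen, Bmp6 differed by -0.11 between GalN/LPS and saline while the markers moved by 2.96, by -0.21 between pretreated and GalN/LPS while they moved by -1.55, and by -0.32 between pretreated and saline while they moved by 1.41. The groups overlapped in each of these comparisons. In bulk liver RNA, more cells of a type and more RNA per cell cannot be told apart, and markers of other cells (neutrophils, monocytes, Kupffer cells) rose after GalN/LPS as well.

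The last 224 of the 3900 exonic bases of Bmp6 (5.74%, chromosome 13, 38500079 to 38500302) overlap exons of Txndc5 on the other strand, which held 41224 counts over all libraries against 1097 for Bmp6. Whether the counting used strand is not stated in the sources used here. Txndc5 changed against Bmp6, by -0.43 ± 0.17 after GalN/LPS (edgeR adjusted p = 0.0465) and by 0.73 ± 0.17 in pretreated against GalN/LPS livers (adjusted p = 0.00189).

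Id1 and Smad7 are induced by BMP signals, Smad7 being an inhibitory SMAD that limits the response. Id1 (chromosome 2, 152736251 to 152737410, ENSMUSG00000042745) was at 5.09, 2.04 and 3.07 CPM in the saline group and at 9.02, 8.38 and 10.7 CPM after GalN/LPS. It rose by 1.46 ± 0.30 on the log2 scale, 2.74-fold, with no overlap (edgeR adjusted p = 0.000627). Pretreated livers held 8.81, 9.77, 7.76 and 5.67 CPM. Against GalN/LPS this was -0.23 ± 0.27 (adjusted p = 0.490, 95% interval -0.79 to 0.34), and against saline 1.23 ± 0.28 (adjusted p = 0.00134), a call lost with library totals (0.57, adjusted p = 0.146). The dmPGE2 libraries held 1.84, 1.39 and 2.57 CPM (-0.80 ± 0.32, adjusted p = 0.272).

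Smad7 (chromosome 18, ENSMUSG00000025880) had another pattern, with 9.59, 6.38 and 5.43 CPM in the saline group, 8.17, 11.2 and 12.8 CPM after GalN/LPS and 3.73, 6.70, 4.09 and 4.82 CPM in pretreated libraries. GalN/LPS and saline overlapped (0.59 ± 0.25, edgeR adjusted p = 0.0587). This difference passed the threshold without saline library 1 (0.85, adjusted p = 0.0155), GalN/LPS library 1 (0.74, adjusted p = 0.0293) or pretreated library 2 (0.59, adjusted p = 0.0391), and with limma on FPKM with a pseudocount of 1 (0.38, adjusted p = 0.0494). Pretreated livers held less Smad7 than GalN/LPS livers with no overlap, at -1.14 ± 0.24 (adjusted p = 0.00121). Against saline they stood at -0.55 ± 0.24 (adjusted p = 0.0556), just short of the threshold. This difference passed in 11 of 22 alternatives, with values from -1.22 to -0.28 and adjusted p-values from 0.00124 to 0.361 over all 22. The 11 were library totals, DESeq2 and its size factors, no filter, only the groups compared, limma on FPKM with either pseudocount, and the fits without saline library 3, GalN/LPS library 1, GalN/LPS library 3 or pretreated library 2. Id1 and Smad7 thus had fitted differences from saline of opposite sign in pretreated livers, and the contrast between both genes was not tested.

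Both are also made by endothelial cells. Set against the endothelial markers, the log2 differences were -1.44 for Id1 and -2.37 for Smad7 between GalN/LPS and saline livers, with no overlap in either. Between pretreated and GalN/LPS livers they were 1.31 for Id1, with no overlap, and 0.41 for Smad7, with overlap. What part the endothelial signal has in the Id1 result was not tested.

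**Figure D3:**
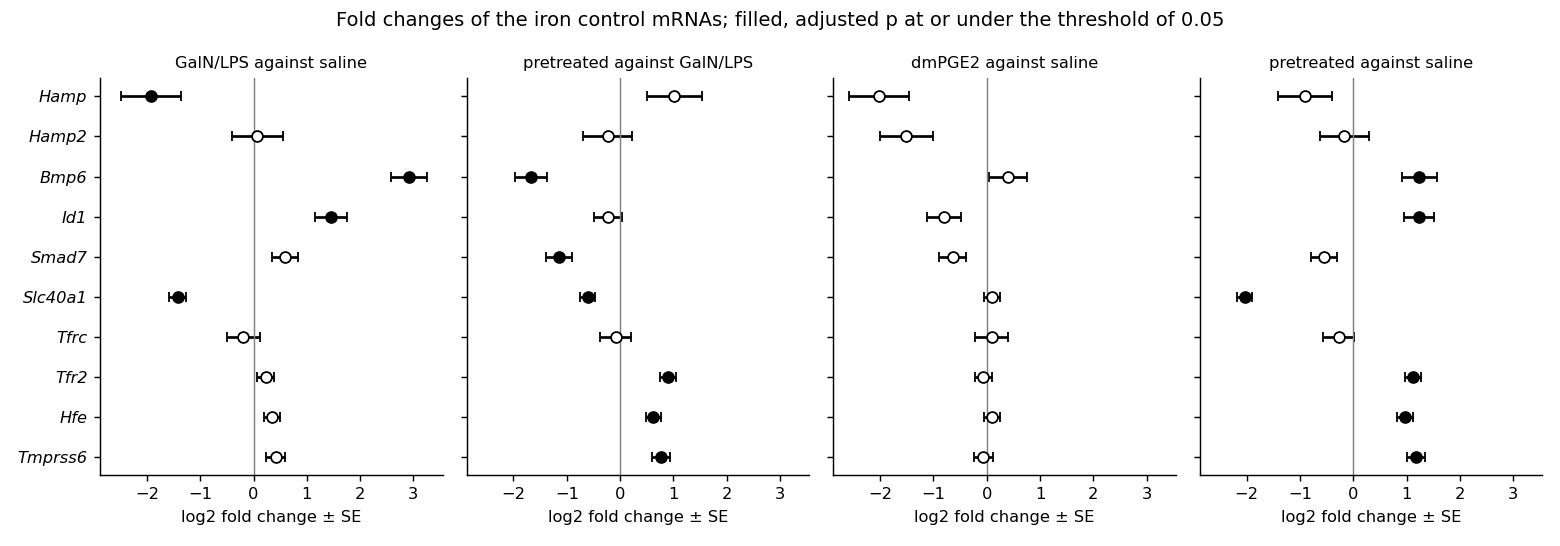
Log2 fold changes (horizontal axis) of the 10 genes in 4 comparisons, with standard errors as bars; filled points passed an adjusted p of 0.05. Hamp and Bmp6 moved in opposite directions after GalN/LPS (-1.92 and 2.92), and no gene passed the threshold after dmPGE2 alone although Hamp stood at -2.02.

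Tfr2, Hfe and Tmprss6 are genes of hepatocyte iron sensing, and all 3 were highest in pretreated livers. Tfr2 (chromosome 5, 137569840 to 137587481, ENSMUSG00000029716) held 394, 324 and 382 CPM in the saline libraries, 375, 539 and 376 CPM after GalN/LPS and 847, 725, 785 and 837 CPM in pretreated libraries. The pretreated libraries were the highest of all, 0.89 ± 0.15 above GalN/LPS on the log2 scale or 1.86-fold (edgeR adjusted p = 0.000277), and 1.12 ± 0.15 above saline (adjusted p = 1.27e-05). GalN/LPS did not differ past the threshold from saline (0.23 ± 0.16, adjusted p = 0.243), and dmPGE2 libraries at 353, 329 and 373 CPM overlapped saline (-0.06 ± 0.16, adjusted p = 0.903).

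Hfe, an MHC-like protein that binds transferrin receptors (chromosome 13, 23702034 to 23710854, ENSMUSG00000006611), was at 35.4, 33.8 and 44.5 CPM in the saline group, 41.1, 58.1 and 45.1 CPM after GalN/LPS and 82.0, 64.2, 77.1 and 73.5 CPM in pretreated libraries. It was 0.63 ± 0.14 higher in pretreated than in GalN/LPS livers (edgeR adjusted p = 0.00191) and 0.97 ± 0.14 higher than in saline (adjusted p = 2.55e-05). GalN/LPS against saline gave 0.34 ± 0.15 (adjusted p = 0.0653), which passed without saline library 3 (0.46, adjusted p = 0.0273) or without GalN/LPS library 1 (0.44, adjusted p = 0.0336). The dmPGE2 libraries held 38.2, 40.3 and 43.5 CPM and overlapped saline.

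Tmprss6, the protease that cleaves hemojuvelin (chromosome 15, 78439667 to 78468634, ENSMUSG00000016942), stood at 409, 390 and 411 CPM in the saline group and at 458, 692 and 470 CPM after GalN/LPS. These did not overlap, yet the difference of 0.42 ± 0.18 missed the threshold (edgeR adjusted p = 0.0583); it passed in DESeq2 (adjusted p = 0.0312) and without GalN/LPS library 1 (0.52, adjusted p = 0.0359). Pretreated libraries held 963, 847, 949 and 901 CPM, 0.76 ± 0.17 above GalN/LPS (adjusted p = 0.00175) and 1.18 ± 0.17, or 2.27-fold, above saline (adjusted p = 2.22e-05). In dmPGE2 libraries it was at 393, 308 and 456 CPM. GalN/LPS library 2 was the highest of its group for all 3 of these genes.

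Hepatocyte markers rose alongside these genes. All 8 markers (Alb, Ttr, Apoa1, Apob, Serpina1a, Ass1, Cps1 and Hnf4a) were higher in pretreated livers than in either the GalN/LPS or the saline group, and their summed level was 140422 to 218796 CPM in pretreated, 91121 to 130778 in GalN/LPS, 86329 to 102092 in saline and 67706 to 74333 in dmPGE2 libraries. Against the mean log2 level of these markers, which moved by 0.80 between pretreated and GalN/LPS, Tfr2 differed by 0.11, Hfe by -0.17 and Tmprss6 by -0.02, and the groups overlapped for each. Between pretreated and saline livers, with a marker shift of 1.01, they differed by 0.11, -0.04 and 0.17 with overlap. Between GalN/LPS and saline livers, Hfe (0.13) and Tmprss6 (0.18) were higher relative to the markers with no overlap, while Tfr2 (0.0037) overlapped. Between dmPGE2 and saline livers, Hfe (0.21) was higher with no overlap, and Tfr2 (0.04) and Tmprss6 (0.02) overlapped. With library totals the calls of Hfe (0.13, adjusted p = 0.406) and Tmprss6 (0.27, adjusted p = 0.128) against GalN/LPS were lost, as was that of Hfe against saline (0.28, adjusted p = 0.0556), while Tfr2 kept both (0.40 and 0.44, adjusted p = 0.0108 and 0.00493). For Hamp, measured the same way, the log2 difference from saline was -2.18 for GalN/LPS, -1.90 for pretreated and -2.06 for dmPGE2 livers, each with no overlap, and the difference between pretreated and GalN/LPS was 0.28 with overlap.

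**Figure D4:**
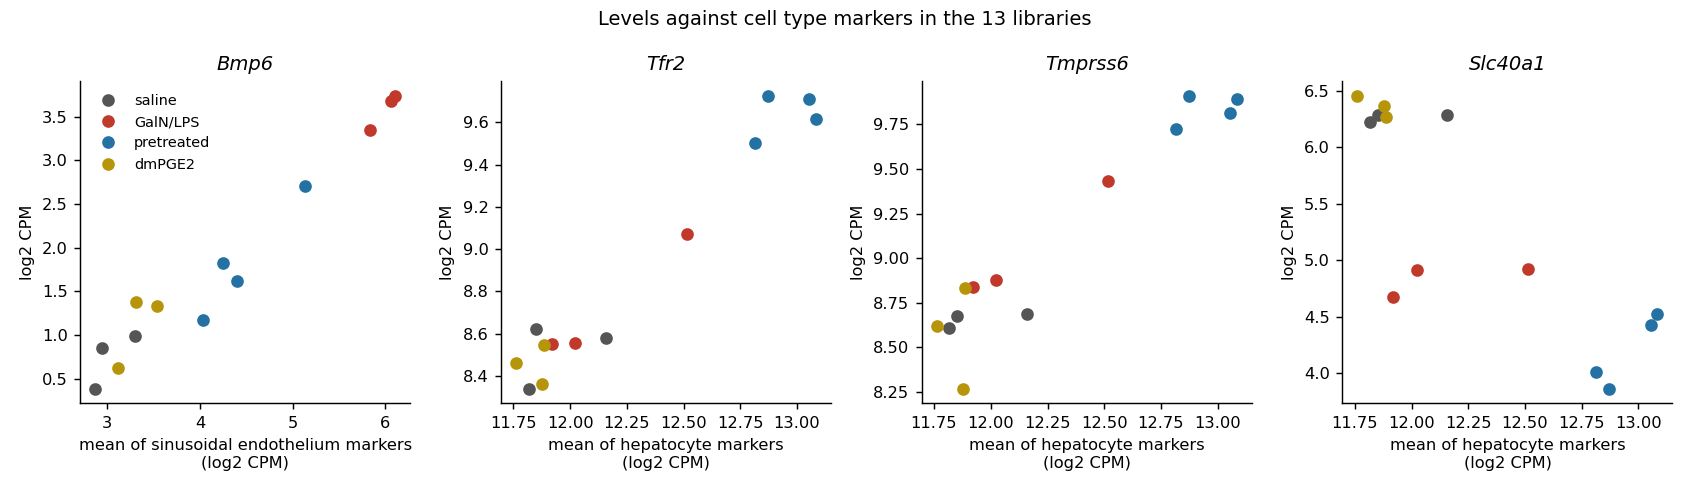
Log2 CPM of Bmp6, Tfr2, Tmprss6 and Slc40a1 (vertical axes) against the mean log2 CPM of 9 sinusoidal endothelial or 8 hepatocyte markers (horizontal axes) in the 13 libraries, coloured by group. Bmp6 varied with the endothelial markers, and Tfr2 and Tmprss6 with the hepatocyte markers. Relative to these markers, Tmprss6 was still 0.18 higher after GalN/LPS than in saline, with no overlap. Slc40a1 is lowest in the pretreated libraries, where the hepatocyte markers are highest.

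Slc40a1, which encodes ferroportin, the target of hepcidin (chromosome 1, 45908068 to 45926523, ENSMUSG00000025993), varied little in uninjured livers, with 77.7, 74.4 and 77.7 CPM in saline and 87.6, 82.0 and 76.7 CPM in dmPGE2 libraries. GalN/LPS libraries held 25.4, 30.3 and 30.0 CPM, and pretreated libraries 14.4, 16.1, 22.9 and 21.4 CPM. Ferroportin mRNA fell by 1.42 ± 0.16 on the log2 scale after GalN/LPS, 2.68-fold (edgeR adjusted p = 1.45e-06), and by 2.04 ± 0.15, 4.10-fold, in pretreated against saline livers (adjusted p = 1.81e-08). Pretreated livers were thus further from saline than GalN/LPS livers, at -0.61 ± 0.15 with no overlap (adjusted p = 0.00284). dmPGE2 alone made no called difference (0.10 ± 0.15, adjusted p = 0.811), and the interaction was -0.71 ± 0.21 (adjusted p = 0.0182; -0.65 with an adjusted p of 0.0516 without dmPGE2 library 1).

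Liver macrophages are rich in ferroportin, and hepatocytes make it as well. Kupffer cell markers moved the other way after GalN/LPS, with 7 of a list of 8 (Clec4f, Vsig4, Timd4, Cd5l, Adgre1, Csf1r, Marco and C1qa) higher than in saline, none at 0 and a summed level of 621 to 983 CPM in GalN/LPS, 291 to 464 in pretreated, 194 to 266 in dmPGE2 and 159 to 203 in saline libraries. Relative to these markers the log2 difference of Slc40a1 from saline was -3.60 for GalN/LPS and -3.16 for pretreated livers, and that between pretreated and GalN/LPS livers was 0.44, with overlap. Relative to hepatocyte markers it was lower at each step, with -1.63 between GalN/LPS and saline and -1.43 between pretreated and GalN/LPS. What part cell composition has in the Slc40a1 result was not tested.

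Tfrc, the import receptor for transferrin iron (chromosome 16, 32608920 to 32632794, ENSMUSG00000022797), was called in no comparison. It was at 12.9, 18.8 and 21.9 CPM in the saline group, 21.8, 14.7 and 20.7 CPM after dmPGE2, 10.3, 16.8 and 19.9 CPM after GalN/LPS and 24.9, 9.63, 12.7 and 11.9 CPM in the pretreated group. All groups overlapped, and pretreated library 1 was the highest of all. The log2 differences ran from -0.27 ± 0.29 (pretreated against saline) to 0.10 ± 0.31 (dmPGE2 against saline) with edgeR adjusted p-values from 0.428 to 0.918. For GalN/LPS against saline the 95% interval of the difference ran from -0.85 to 0.47. Pretreated against saline passed without pretreated library 1 (-0.65, adjusted p = 0.0310) with library totals (-0.96, adjusted p = 0.00997) and without the filter (-0.43, adjusted p = 0.0399).

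Per length, in the deposited FPKM, Hamp was the most abundant of the 10 mRNAs in every group, with group means of 2198 ± 1030 for saline, 1131 ± 536 for pretreated, 573 ± 313 for GalN/LPS and 540.2 ± 343 for dmPGE2 (SD). Tmprss6 (122 FPKM in saline) and Tfr2 (85.8 FPKM) followed, then Hamp2 (17.0 FPKM), Hfe (10.8 FPKM) and Slc40a1 (8.65 FPKM). Id1 (2.98 FPKM), Tfrc (2.93 FPKM) and Smad7 (1.60 FPKM) came next, and Bmp6 (0.413 FPKM) was the rarest. In saline the libraries of Id1, Tfrc and Smad7 overlapped one another, so these neighbours have no firm order, while the other neighbours did not overlap. In GalN/LPS livers Bmp6 stood at 3.12 FPKM, and its libraries overlapped those of Slc40a1 (3.19 FPKM), Tfrc (2.54 FPKM) and Smad7 (2.38 FPKM). In saline livers Hamp exceeded Hamp2 by 77.8-fold to 222-fold in FPKM.

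Other genes of the BMP route were read from a list of 27, of which 24 were tested. After GalN/LPS, 9 rose and 7 fell (27.4% and 25.6% of all genes), with a median log2 fold change of -0.19 against 0.02 over all genes. Bmp2, the other endothelial BMP of the liver, rose from 3.98 ± 0.452 to 35.3 ± 4.85 CPM (SD, n = 3 each), by 3.15 ± 0.27 on the log2 scale (edgeR adjusted p = 1.04e-07). Inhbb, which encodes the subunit of activin B, a ligand that can raise hepcidin in inflammation, went from 0.595 ± 0.268 to 64.8 ± 24.1 CPM (6.76 ± 0.71, adjusted p = 9.65e-07). Fkbp1a, an inhibitor bound to BMP receptors, rose by 0.79 ± 0.12.

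The co-receptor went the other way. Hemojuvelin, listed under its older symbol Hfe2, fell from 58.2 ± 12.7 to 9.71 ± 2.83 CPM, by 2.58 ± 0.25 (edgeR adjusted p = 3.5e-07), and stood at 22.2 ± 6.08 CPM in pretreated livers (n = 4), 1.19 ± 0.23 above GalN/LPS (adjusted p = 0.000696). It was the 1 gene of the list that was higher in pretreated than in GalN/LPS livers. In that comparison 14 of the 24 fell (30.1% of all genes did), with a median of -0.76 against -0.10 over all genes. They included Bmp2 (-1.78 ± 0.23), Inhbb (-3.23 ± 0.50), the signal carrier Smad1 (-1.53 ± 0.20) and the receptor Acvr1 (-1.19 ± 0.22). Hamp and its co-receptor thus both fell after GalN/LPS while the ligands Bmp6, Bmp2 and Inhbb rose. The co-receptor was not alone in this: Bmpr1a (-0.93 ± 0.14), Neo1 (-1.12 ± 0.23), Atoh8 (-1.73 ± 0.27), Acvr1, Acvr2a and Smad5 were also called lower. The other genes of the list called higher were Bmp5, Gdf2, Bmpr2 (1.18 ± 0.23), Smad6 (1.57 ± 0.27), Id3 and Id4.

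A list of 4 protease and inhibitor genes was read as well, and whether each acts on hemojuvelin was not tested. The serine protease gene St14 rose by 2.43 ± 0.40 after GalN/LPS, at low mean levels of 0.694 CPM in saline and 3.79 CPM after GalN/LPS. Furin and Pcsk7 fell by 0.42 ± 0.14 and 0.37 ± 0.13. In pretreated against GalN/LPS livers, Spint2 (0.56 ± 0.12), an inhibitor of such proteases, and Furin (0.49 ± 0.13) were higher and St14 (-1.09 ± 0.35) was lower. The medians of these 4 genes were -0.17 and 0.33. On the interleukin 6 and STAT3 route, 5 of 11 tested genes rose after GalN/LPS and 3 fell (27.4% and 25.6% of all genes did), with a median log2 fold change of -0.02 against 0.02 over all genes. Jak2 (2.30 ± 0.23) and Jak1 (1.05 ± 0.14), kinases of the receptor, were among those that rose. Cebpa, a hepatocyte transcription factor that drives hepcidin, fell by 3.16 ± 0.39, from 490 ± 25.1 to 54.9 ± 18.7 CPM, and was at 18.8 ± 12.4 CPM in pretreated livers (n = 4). Against GalN/LPS, 6 of the 11 were lower in pretreated livers and 1 was higher (30.1% and 24.4% of all genes), with a median of -0.64 against -0.10. The lower ones included Il6 (-2.95 ± 0.51), Jak2 (-1.55 ± 0.20), the receptor subunit Il6st (-1.31 ± 0.23) and Jak1 (-0.64 ± 0.13).

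Cellular iron sensing was read from 10 genes, of which 2 rose and 3 fell after GalN/LPS (27.4% and 25.6% of all genes), with a median of -0.16 against 0.02 over all genes. These counts lie near the background. Fbxl5, which marks the iron regulatory proteins for degradation, rose by 1.35 ± 0.14, and Ireb2, which encodes 1 of those proteins, fell by 0.93 ± 0.19. Hif1a rose by 0.95 ± 0.20 and Egln2, a hydroxylase of hypoxia factors, fell by 0.69 ± 0.17. In pretreated against GalN/LPS livers 4 were higher and 3 lower (24.4% and 30.1% of all genes; median -0.08 against -0.10), among them Hif1a (-1.80 ± 0.19), Fbxl5 (-0.75 ± 0.13), Vhl (-0.81 ± 0.19) and Aco1, the other iron regulatory protein (0.98 ± 0.16). These proteins bind the mRNAs of Tfrc and Slc40a1.

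Iron storage and transport (19 genes tested) had 9 that rose and 3 that fell after GalN/LPS (27.4% and 25.6% of all genes), with a median of 0.58 against 0.02 over all genes. Slc11a1, the iron and manganese carrier of phagocytes, rose by 3.43 ± 0.22 (edgeR adjusted p = 3.47e-09), from 4.59 ± 1.18 to 49.6 ± 11.1 CPM. Ferritin heavy chain Fth1 went from 1132 ± 55.6 to 2397 ± 105 CPM (1.08 ± 0.16), and the iron chaperone Pcbp1 fell by 0.86 ± 0.15. The ferroxidase Heph rose by 2.97 ± 0.53, at low mean levels of 0.251 CPM in saline, 2.03 CPM after GalN/LPS and 0.441 CPM in pretreated livers. Pretreated livers had 6 higher and 6 lower than GalN/LPS livers (24.4% and 30.1% of all genes; median 0.15 against -0.10), with ceruloplasmin (Cp) higher by 0.99 ± 0.18 and Slc11a1 (-1.18 ± 0.18), Heph (-2.17 ± 0.48) and Pcbp1 (-0.88 ± 0.14) lower.

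Among 13 genes of heme handling, Hmox1, which releases iron from heme, rose by 3.84 ± 0.26 after GalN/LPS (edgeR adjusted p = 9.07e-09), from 12.3 ± 2.67 to 176 ± 47.2 CPM, and was the 1 that rose. Alas1, the first enzyme of heme synthesis, fell by 3.40 ± 0.36, from 404 ± 164 to 38.5 ± 12.9 CPM, and Flvcr2 (-1.81 ± 0.49) and haptoglobin Hp (-0.91 ± 0.36) fell too. Mean levels of Flvcr2 were low, at 3.06 CPM in saline and 0.858 CPM after GalN/LPS. Of all genes 27.4% rose and 25.6% fell, and the list's median was 0.04 against 0.02. In pretreated against GalN/LPS livers 7 were higher and 2 lower (24.4% and 30.1% of all genes; median 0.54 against -0.10), with Slc46a1 (0.90 ± 0.13), Fech (1.01 ± 0.17) and Hmox2 (0.53 ± 0.10) higher and Hmox1 (-1.27 ± 0.22) lower. Alas1 stayed low in pretreated livers, at 26.5 ± 10.8 CPM (n = 4), as Slc40a1 did. After dmPGE2 alone edgeR called 0% of all genes tested, so the absence of calls in these lists says nothing about them.

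**Figure D5:**
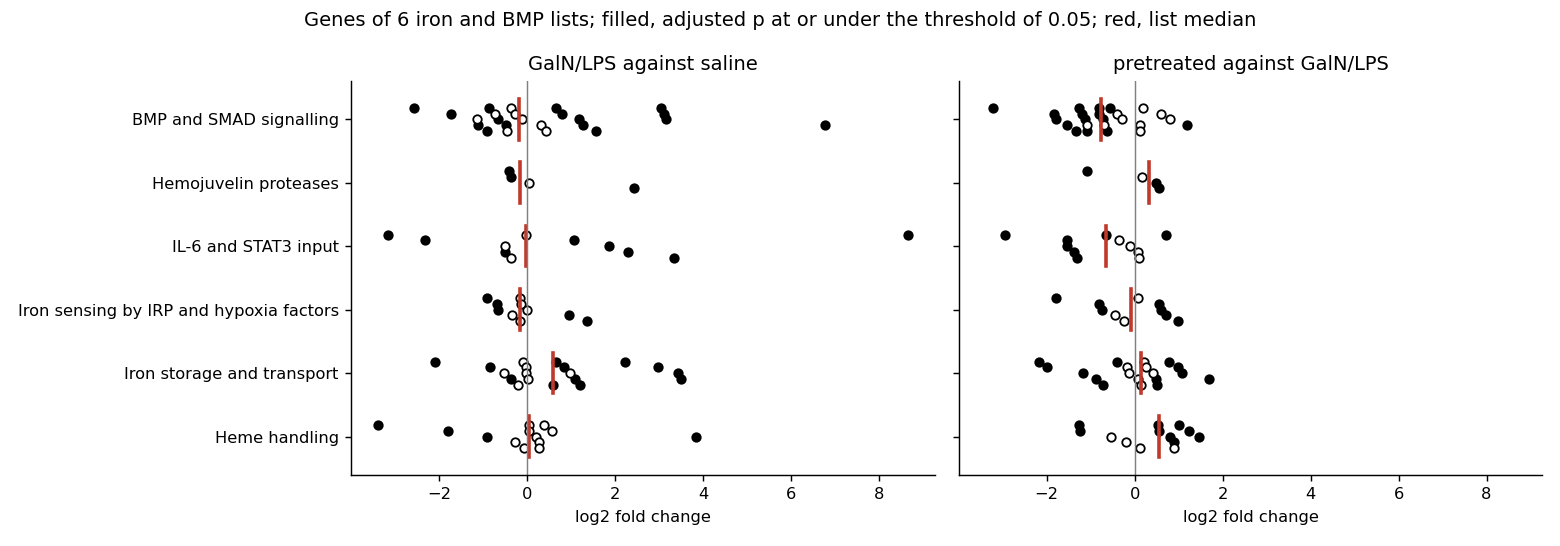
Log2 fold changes (horizontal axis) of the tested genes of 6 lists after GalN/LPS against saline (left) and in pretreated against GalN/LPS livers (right); filled points passed an adjusted p of 0.05 and red bars mark the list medians. The BMP and SMAD list has its median at -0.19 on the left and -0.76 on the right, and the largest BMP-side rise on the left is Inhbb at 6.76.

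The genes whose log2 levels followed Hamp most closely over the 13 libraries, among 8881 others with a mean of at least 5 CPM, were Ccnt2 (Pearson r = 0.84), Dnajc12 (0.82), Enho (0.80), Ttc36 (0.80) and Serpina6 (0.79). These values are descriptions: the libraries share 4 treatment groups and a common scaling. For Slc40a1 the nearest were 1190002N15Rik, Nr5a2 and Tmem18 (0.99 each), for Id1 H2-Q7 (0.97), Arpc1b (0.96) and Ddx39b (0.96), and for Tfrc Cited2 (0.74), Slc25a51 (0.74) and Dvl1 (0.73). The likeness of Slc40a1 to its neighbours was thus near complete, while Hamp and Tfrc had no neighbour as near. Dnajc12, for example, had group means of 29.8 CPM in saline, 16.3 in pretreated, 7.13 in GalN/LPS and 11.1 in dmPGE2 livers, the same order as Hamp apart from the last pair.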

How the data were processed

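RNA sequencing of 13 mouse liver libraries was analysed from the deposited tables. The authors deposited raw read counts per Ensembl gene, and FPKM for the same libraries. HISAT2 (no version) and GRCm38/mm10 come from the submitters' processing notes, and neither the counting tool nor its annotation or strand setting is stated in the sources used here. The denominators of the deposited FPKM were 0.706 to 1.28 times the library totals. The ALF columns were assigned to GalN/LPS because the names of the other columns matched other groups. The design text speaks of AILI mice, while the labels give GalN/LPS and were followed.

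The test was that of edgeR 4.0.16, run in R 4.3.3 on all 13 libraries in 1 fit (TMM, its filter by group, group as the only term, quasi-likelihood F test, two-sided, Benjamini-Hochberg over the 14280 genes tested, 9 residual degrees of freedom). The scripts were tested on simulated counts. Levels relative to marker lists are differences of log2 CPM (prior count 2). Alternatives used DESeq2 1.42.0, limma 3.58.1 on log2(FPKM + 1) or with 0.1 added, other scalings, no filter and libraries left out. Overlap with other genes was examined for the 10 genes only.

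The genes and lists were chosen with earlier results of these data known. From each list, up to 4 genes with the smallest adjusted p were named in GalN/LPS against saline and in pretreated against GalN/LPS livers. Levels of other genes, and the other genes of the BMP list called after GalN/LPS, were added after their values were seen.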

Additional observations from a re-analysis of the deposited data

Results flagged for a closer look

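For 5 of the 10 genes the effect of dmPGE2 differed between injured and uninjured livers by the interaction term of edgeR's quasi-likelihood test. The interval between dmPGE2 and collection is not recorded for the dmPGE2 group, so timing cannot be told apart from injury for any of them. Hamp had the largest difference, 3.04 on the log2 scale (adjusted p = 0.00862), with 1.02 in injured and -2.02 in uninjured livers, neither called. Bmp6 had -2.07 (adjusted p = 0.00473), from -1.67 in injured and 0.40 in uninjured livers. For the ferroportin gene Slc40a1 the difference was -0.71 (adjusted p = 0.0182; 0.0516 without dmPGE2 library 1), from -0.61 and 0.10. Tfr2 had 0.95 (adjusted p = 0.00559), from 0.89 and -0.06. Tmprss6 had 0.83 (adjusted p = 0.0180), from 0.76 and -0.07, and missed the threshold without GalN/LPS library 1 (0.72, adjusted p = 0.0517) or GalN/LPS library 3 (0.72, adjusted p = 0.0584). With library totals the differences of Tfr2 (0.39, adjusted p = 0.0924) and Tmprss6 (0.26, adjusted p = 0.352) were not called. Of the hepatocyte markers, 5 of 8 had a positive interaction and none a negative one, and of the endothelial markers 8 of 9 had a negative one. Their part in these results was not tested. Over all genes tested, 35% were called for this term.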

How the results depend on the processing

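The fold changes of the 10 genes were recomputed with other scalings, without a filter, with DESeq2, with limma on FPKM, with only the groups compared, with a replicate block and relative to marker lists. Of 445 such values apart from those relative to markers, 403 kept their direction and side of the threshold, 20 passed it newly, 9 lost it and 13 turned in sign. Each that turned was uncalled: Hamp2 after GalN/LPS (-0.19 with library totals, -0.072 without a filter, -0.25, -0.28 and -0.25 on FPKM) and in pretreated against GalN/LPS (0.0058, 0.020 and 0.0058 on FPKM), and with library totals Tfr2 and Tmprss6 after dmPGE2 (0.011 each) and Id1 (-0.0034) and Hfe (-0.046) for the interaction. Genes called after dmPGE2 alone numbered 461 without a filter, 280 with DESeq2, and 16 or 10 on FPKM, with 2 of the 10 genes called without a filter and 1 with DESeq2; the fit without a filter had an infinite prior, so its p-values are very small. The causes were not tested.

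Levels relative to markers were added after the data were seen. On hepatocyte markers, signs of called differences turned for Hfe (-0.17 and -0.042 in pretreated against GalN/LPS and saline) and Tmprss6 (-0.019 against GalN/LPS). On endothelial markers they turned for Bmp6 (-0.11 after GalN/LPS, -0.32 in pretreated against saline) and Id1 (-1.44 and -0.14 in the same comparisons). In pretreated against GalN/LPS they turned for Smad7 (0.41, endothelial markers) and Slc40a1 (0.44, Kupffer markers). Among uncalled differences, Id1 in pretreated against GalN/LPS turned to 1.31 and Smad7 after GalN/LPS to -2.37 on endothelial markers, both with no overlap. Others turned with overlap after dmPGE2: Slc40a1 on Kupffer markers (-0.26), and Tfr2 (0.044) and Tmprss6 (0.017) on hepatocyte markers. Tfrc turned with overlap on erythroid markers in pretreated against GalN/LPS (0.37) and after dmPGE2 (-0.028).

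With 1 library left out, 617 of 650 fold changes kept their direction and side of the threshold. After GalN/LPS, 4 to 7 of the 10 genes were called, beside 6852 to 7735 of all genes. After dmPGE2 alone, 0 to 27 of all genes were called. Ranges that crossed 0 were -1.06 to 0.40, -0.61 to 0.90 and -0.44 to 0.15 for Hamp2 (GalN/LPS against saline, and pretreated against either of these), -0.51 to 0.037, -0.46 to 0.12, -0.089 to 0.27 and -0.56 to 0.018 for Tfrc (GalN/LPS, pretreated against GalN/LPS, dmPGE2, interaction), and -0.20 to 0.077 for Tmprss6 after dmPGE2. Same-numbered libraries of the groups compared correlated between -0.31 and 0.09 in their deviations, so the numbers do not pair them; a replicate block moved Tmprss6 for the interaction to 0.84 (adjusted p = 0.0516) and Hamp2 after GalN/LPS to -0.078, left 4, 6, 0, 6 and 4 of the 10 genes called and changed no other call. Depth limits Bmp6, with 24 to 39 counts per saline library, and Id1, with 24 to 61 per dmPGE2 library.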
